A study of Drosophila melanogaster with 2 samples.

Results

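The 418 reproducible peaks of Dorsal on the X chromosome of Drosophila melanogaster were examined, that is, every region of the authors' thresholded dm6 list that lay on X, out of 2718 in that list. Within that list, membership depended on position alone, and the list itself left out the weaker of the regions that had been called. The peaks of the autosomal arms 2L (503), 3L (563) and 3R (674), 1740 in all, served for comparison. Autosomal below means these 3 arms, and the other regions of the list were not part of the comparison. Chromatin immunoprecipitation followed by sequencing (ChIP-seq) had been carried out on whole larvae, males and females pooled, at the third instar, in the wandering stage, when they leave the food before pupariation. The strain, dl-small-GFP, carries a transgene for the isoform dl-RC of Dorsal with GFP at its C terminus, and the antibody was against GFP (a further label field names dl as its target). There was 1 group of 2 biological replicates, numbered 3 and 1, both of this genotype, with fragments of 175 to 275 bp and 200 to 275 bp, and the control experiment named in the labels was not used here. All tissues of the larva were in the sample, so a peak cannot be assigned to a tissue, and male and female X chromosomes cannot be told apart. Read depth is unknown, because the lists hold no read counts.

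Dorsal (dl) is an NF-kB family transcription factor. Toll signalling frees it from its inhibitor Cactus, after which it enters the nucleus and binds kappaB-type sites. It is known for patterning the dorsoventral axis of the embryo and, in larvae, for its part in the Toll immune response. The X chromosome of male flies is transcribed at a raised rate by the dosage compensation complex, whose binding elements on X are rich in GA repeats. GA repeats are also bound by GAGA factor (Trl) and by CLAMP, proteins found at many fly promoters.

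The summit of the strongest X peak lay 1 bp from the middle of a GA repeat motif, and such repeats were the most common sequence feature searched at X summits. The motif GAGAGAG, searched on both strands, lay within 100 bp of the summit in 218 of the 418 peaks (52.2%, exact 95% interval 47.2 to 57.0%). Over all windows of the same length (201 bp) laid end to end along X, 2.95% held it. The summits of the 5 strongest peaks with the motif are shown as examples of it. They are the plus strand of dm6 at chrX:15811799-15811919 (235 bp upstream of a start site of sd), chrX:2083783-2083907 (an intron of Unc-76), chrX:12006959-12007081 (155 bp upstream of CG1806), chrX:7696767-7696887 (123 bp upstream of a start site of CHES-1-like) and chrX:2317607-2317733 (an intron of Raf that also lies near lncRNA:CR34052). Capitals mark GAGAGAG or its complement CTCTCTC, with overlapping matches merged.
sd: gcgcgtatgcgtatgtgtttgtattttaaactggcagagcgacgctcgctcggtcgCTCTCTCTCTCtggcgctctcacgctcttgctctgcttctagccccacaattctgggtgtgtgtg
Unc-76: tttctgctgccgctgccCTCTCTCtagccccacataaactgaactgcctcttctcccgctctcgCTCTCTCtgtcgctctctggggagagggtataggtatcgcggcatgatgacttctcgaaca
CG1806: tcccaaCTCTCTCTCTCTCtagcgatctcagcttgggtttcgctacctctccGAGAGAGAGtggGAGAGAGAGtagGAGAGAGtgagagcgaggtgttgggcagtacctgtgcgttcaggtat
CHES-1-like: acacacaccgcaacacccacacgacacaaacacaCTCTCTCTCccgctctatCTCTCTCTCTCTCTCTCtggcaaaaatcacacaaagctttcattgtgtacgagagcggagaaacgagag
lncRNA:CR34052: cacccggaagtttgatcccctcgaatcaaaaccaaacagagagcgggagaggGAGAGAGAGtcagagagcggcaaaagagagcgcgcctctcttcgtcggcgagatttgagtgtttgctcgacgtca

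The strongest peaks without the motif were shown for contrast, at chrX:9030028-9030148 (upstream of Nost) and chrX:8398634-8398754 (upstream of CG10555), where the capital letter marks the summit. A further one, upstream of CG4004, lay in an annotated UTR and is not printed.
Nost: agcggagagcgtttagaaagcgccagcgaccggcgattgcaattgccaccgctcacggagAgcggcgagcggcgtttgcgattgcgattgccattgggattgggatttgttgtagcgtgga
CG10555: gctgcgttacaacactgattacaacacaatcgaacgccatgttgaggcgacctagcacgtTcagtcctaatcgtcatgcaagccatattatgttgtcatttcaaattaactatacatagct

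The dl motif, a kappaB-type consensus, was found near 4 X summits, and the 3 strongest of them are shown with the motif in capitals. They lay at chrX:14946607-14946688 in an intron of pdgy, at chrX:16104879-16104908 beside the start site of CG42353, where 30 bases are printed, and at chrX:6346999-6347102 beside that of CG3847.
pdgy: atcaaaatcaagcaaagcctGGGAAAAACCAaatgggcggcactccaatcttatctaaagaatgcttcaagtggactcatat
CG42353: ggaacGGGAAAACCAaacaaaaaaataaca
CG3847: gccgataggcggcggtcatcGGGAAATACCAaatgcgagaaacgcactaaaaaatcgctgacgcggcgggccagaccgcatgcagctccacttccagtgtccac

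The median signal on X lay within the range of the autosomal arms, and the highest values were lower on X. Each region carried a signal value, the authors' score for ChIP called against the control. The weakest peak had nearly the same signal on each arm, 73.25 on X, 73.34 on 2L, 73.28 on 3L and 73.39 on 3R. Because of this shared floor, similarity of the medians and of the shares that reach a common median is partly built in. The median was 118.8 on X, 120.8 on 2L, 115.7 on 3L and 119.3 on 3R, and the 90th percentile was 296.0 on X against 294.4 to 301.1 on the other 3 arms. Of the 418 X peaks 209, and of the 1740 autosomal peaks 870, reached the median over all peaks of the 4 arms, an odds ratio of 1 (95% interval 0.808 to 1.24, two-sided Fisher's exact test, adjusted p = 1). The highest X signal was 780.2, whereas the highest were 1332 on 2L, 931.0 on 3L and 2824 on 3R. Above 780.2 lay 13 peaks of 2L, 3L and 3R, and regions outside the 4 arms were not counted. At 500 or above there were 7 X peaks (1.67%) and 54 autosomal peaks (3.10%), a difference that was not tested.

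**Figure D1:**
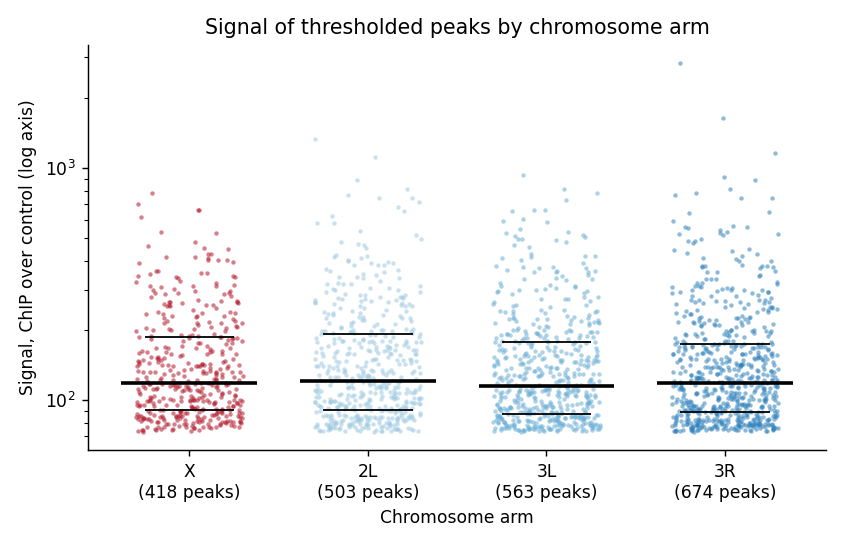
Signal (log axis, labelled ChIP over control, a score) of each thresholded peak on X, 2L, 3L and 3R, 1 point per peak. The median is a thick line and the quartiles are thin lines. The medians lie between 115.7 and 120.8, and the highest X point, 780.2, lies below the highest point of each other arm.

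The 20 X peaks of highest signal had values from 393.7 to 780.2 and ranks 35 to 163 in the whole thresholded list. Of these 20, 13 lay at promoters (summits up to 500 bp from an annotated start site) and 6 in introns, and 16 had the GAGAGAG motif. All 20 were among the 2718 best regions of both single-alignment lists, called A and B here because nothing in the sources links them to the replicate numbers. The pooled signal that ranks these peaks comes from the same alignments, so that overlap is partly built in. The strongest, at sd (scalloped, the DNA-binding partner of Yorkie in the Hippo growth pathway), had a signal of 780.2, with 462.8 in list A and 359.7 in list B. The peak of Unc-76, whose product takes part in axonal transport, had 697.9, with 363.8 in list A and 378.1 in list B. CG1806 had 659.2, and CHES-1-like, which encodes a forkhead transcription factor, had 657.1 at a promoter and 480.1 in an intron. The intronic peak of Raf, the kinase of the Ras and MAPK cascade, had 616.2, and a further intronic peak of Raf, 5678 bp from its start site, had 409.9.

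Trf2, a relative of the TATA-binding protein, had a promoter peak of 529.8, and dome, the receptor of the JAK-STAT pathway, one of 525.5. Tlk, a kinase with a role in chromatin assembly, had an intronic peak of 462.2. The BET bromodomain gene fs(1)h had a promoter peak of 454.6 and sgg, the fly GSK3 of Wnt signalling, one of 425.6. The intergenic peak nearest to lncRNA:CR45609 had 449.6 and the intronic peak of bif, an actin-associated protein, 425.8. The others were promoter peaks of Nost (415.7), of sesB, the mitochondrial ADP/ATP translocase (413.0), of CG10555 (403.9), of MFS10 (403.7), of CG4004 (400.5) and of Mct1 (393.7). CG10555 and CG4004 differed most between lists within this group, with 331.3 in list A and 70.1 in list B for CG10555, and 326.3 and 84.1 for CG4004. Neither has the GAGAGAG motif.

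Signals of the X peaks were set side by side in lists A and B. Of the 418 peaks, 389 were matched in both lists, 9 had no match in A and 20 none in B. Across the 389, Spearman's rho was 0.58, a description over regions that share alignments and control. List A had the higher value in 289 of them, and the 2 lists are not normalised to each other. The value in A was at least 3 times that in B for 25 peaks, and the reverse held for 0. The share of X peaks in the best 2718 of both lists was 60.05% (251 of 418), against 58.0% (1009 of 1740) on the autosomal arms, an odds ratio of 1.09 (95% interval 0.876 to 1.35, two-sided Fisher's exact test, adjusted p = 0.775).

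**Figure D2:**
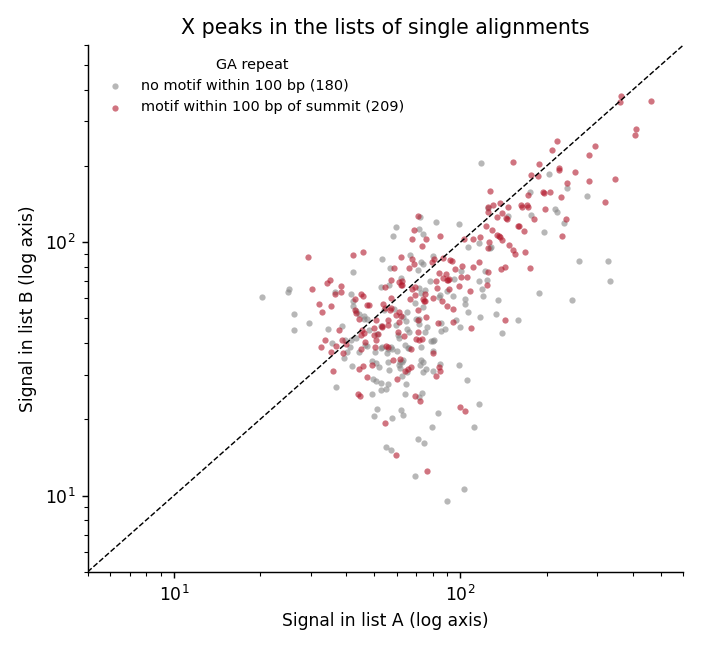
Signal of the 389 X peaks matched in both lists, list A against list B (log axes), coloured by whether GAGAGAG lay within 100 bp of the summit; the dashed line marks equal values. Most points lie below the line, and the peaks far below it have low values in list B, such as the sog promoter with 89.5 in A and 9.55 in B.

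The threshold fell within a continuous range of signal. The 2 weakest X peaks inside it were at the promoters of CG1640 (73.25) and mew (73.64, an integrin subunit). The 2 strongest X candidates outside it were near Sclp (73.18) and goe (73.10). Of the 4119 pooled candidates on X, 418 passed (10.1%, 95% interval 9.24 to 11.1%), against 1740 of 19886 on the autosomal arms (8.75%, 95% interval 8.36 to 9.15%) and 8.99% of the candidates of the 4 arms together. The odds ratio was 1.18 (95% interval 1.05 to 1.32, two-sided Fisher's exact test, adjusted p = 0.0245). The call was lost against 3R alone, where 9.32% passed (odds ratio 1.10, adjusted p = 0.619 by the same exact test) with only peaks that reached the median of the whole thresholded list (odds ratio 1.16, adjusted p = 0.310), and without the Mnt to Tlk stretch described below (9.57%, odds ratio 1.10, adjusted p = 0.476), a setting chosen after the data were seen. The density of candidates was lower on X, 175.0 per Mb against 225.4 to 251.3, and so was that of peaks, 17.8 per Mb against 20.03 to 21.4. Coding genes were also sparser, 93.3 per Mb against 97.4 to 113.0, and per 100 coding genes there were 19.0 peaks on X and 18.9 to 20.6 on the other arms. The amount of X DNA relative to autosomal DNA in this pool of males and females is unknown from the lists. Its effect on these densities was not tested.

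More than 50 percent of the X summits lay at promoters, as on the autosomal arms. Promoters held 221 of 418 (52.9%, 95% interval 48.0 to 57.7%) against 950 of 1740 (54.6%), an odds ratio of 0.933 (95% interval 0.753 to 1.16, two-sided Fisher's exact test, adjusted p = 0.639), whereas promoter windows made up 12.4% of X. Of the 221, 163 had their summit upstream of the start site and 58 at or downstream of it, with a median position 68 bp upstream. Introns held 139 X peaks (33.3%, against 29.9%), 5′ UTRs 14 (3.35%, against 1.78%), 3′ UTRs 5, coding exons 4 and other exons 4. The 4 in coding exons were 2 in bif, with signals of 352.2 and 81.6, 1 nearest to Moe, which links actin to the membrane (105.3), and 1 in NFAT (95.1). The 5 in 3′ UTRs were nearest to pigs (349.4), Lim1 (261.6), RSG7 (235.8), REG (100.7) and Inx2 (84.0). These genes were named after their values were seen.

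Intergenic summits were fewer on X, 31 (7.42%, 95% interval 5.09 to 10.4%) against 204 (11.7%, 95% interval 10.2 to 13.3%), but the difference did not pass (odds ratio 0.603, 95% interval 0.407 to 0.894, two-sided Fisher's exact test, adjusted p = 0.0771 over 7 classes). Intergenic sequence made up 22.8% of X and 24.0 to 32.5% of the other arms, and held 12.9% of X candidates that did not pass against 23.2% of autosomal ones. The lower intergenic share was thus also present among the candidates that did not pass. Median signal was 126.2 for promoter peaks, 115.5 for intronic peaks and 108.3 for intergenic peaks of X.

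**Figure D3:**
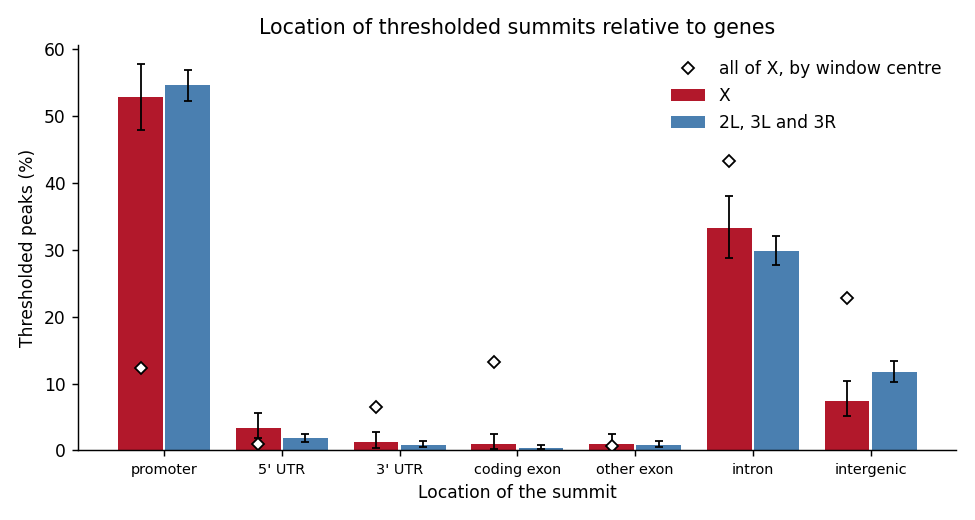
Share of thresholded summits in each location class on X (red) and on 2L, 3L and 3R together (blue), with exact 95% intervals; diamonds give the share of all of X in that class. Promoters hold 52.9% of X peaks and 12.4% of X, and intergenic sequence 7.42% of X peaks and 22.8% of X.

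At the level of genes, 220 of the 2196 protein-coding genes of X had at least 1 start site with a summit within 1000 bp (10.0%), against 960 of 8817 autosomal genes (10.9%). The odds ratio was 0.911 (95% interval 0.781 to 1.06, two-sided Fisher's exact test, adjusted p = 0.619). With a window of 5000 bp the difference passed, 369 X genes (16.8%) against 20.4% (odds ratio 0.789, exact test, adjusted p = 0.00069). Within 1000 bp of a coding start site, 232 X peaks had 1 coding gene, 38 had 2 or more and 148 had none.

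The GA repeat was more frequent at X summits than at autosomal ones. GAGAGAG was present at 52.2% of X summits and at 729 of 1740 autosomal summits (41.9%, 95% interval 39.6 to 44.3%), an odds ratio of 1.51 (95% interval 1.22 to 1.87, two-sided Fisher's exact test, adjusted p = 0.00139 over 15 motifs). The longer repeat of GA 5 times, whose matches all contain GAGAGAG or its complement, was present at 99 X summits (23.7%) and at 261 of 1740 autosomal ones (odds ratio 1.76, 95% interval 1.35 to 2.28, same exact test, adjusted p = 0.000591). The share on the arms taken singly was 39.4% on 2L, 40.1% on 3L and 45.3% on 3R for GAGAGAG. Against 3R alone the call for GAGAGAG was lost (odds ratio 1.32, exact test, adjusted p = 0.108), whereas that for the longer repeat was kept (odds ratio 1.70, exact test, adjusted p = 0.0115). Among the 207 X and 865 autosomal peaks at or above the median of the whole thresholded list, which also holds regions outside these 4 arms, GAGAGAG no longer passed (60.9% against 53.6%, odds ratio 1.34, exact test, adjusted p = 0.312).

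The difference in GAGAGAG passed among peaks outside promoters and not among those at promoters. Outside promoters 111 of 197 X peaks (56.3%) and 40.1% of autosomal peaks had GAGAGAG (odds ratio 1.93, 95% interval 1.40 to 2.64, exact test, adjusted p = 0.000821). At promoters the shares were 107 of 221 (48.4%) and 43.4% (odds ratio 1.23, 95% interval 0.914 to 1.64, exact test, adjusted p = 0.419). Whether the 2 odds ratios differ was not tested. The longer repeat passed at promoters (odds ratio 1.83, exact test, adjusted p = 0.0233) and not outside them (odds ratio 1.68, exact test, adjusted p = 0.0635).

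The share of windows with GA repeats was also higher on X over whole arms and in candidates that did not pass. Over whole arms, 2.95% of windows on X and 2.33% on 2L, 3L and 3R held GAGAGAG, an odds ratio of 1.28. In candidates that did not pass, 320 of 3701 on X (8.65%) and 5.11% on the autosomal arms held it (odds ratio 1.76, 95% interval 1.54 to 2.004). In flanks 1000 bp from the thresholded summits the shares were 6.94% and 5.09%, a difference that did not pass (odds ratio 1.39, 95% interval 1.02 to 1.89, exact test, adjusted p = 0.155). Relative to its own arm, the share at summits was 17.7 times that of all windows on X, 17.8 on 2L, 16.3 on 3L and 19.7 on 3R, so the X value lay within the range of the other arms. For the longer repeat the ratio was 30.8 on X and 33.9 to 38.0 on the others.

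**Figure D4:**
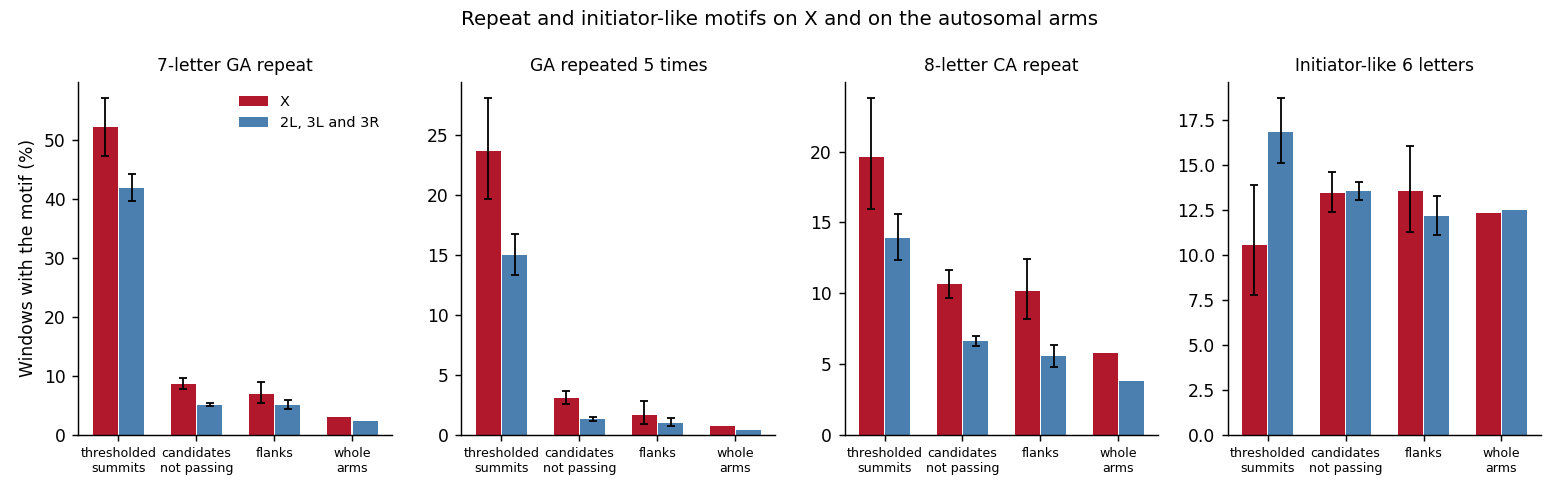
Share of 201 bp windows with GAGAGAG, with GA repeated 5 times, with CACACACA and with TCAGTT at thresholded summits, in candidates that did not pass, in flanks 1000 bp away and over whole arms, on X (red) and on 2L, 3L and 3R (blue), with exact 95% intervals where counts of regions are shown. The shares of the GA and CA repeats are higher on X in all 4 kinds of window, although for the GA repeats in flanks the difference did not pass, whereas TCAGTT differs at thresholded summits, 10.5% against 16.8%, and is 13.5% on X and 13.5% on the autosomes in candidates that did not pass.

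Among the X peaks themselves, those with the GA repeat had a higher median signal. The median was 136.6 for the 218 with GAGAGAG and 105.2 for the 200 without it, and the ranges overlapped (74.4 to 780.2 and 73.3 to 415.7). Divided into 4 groups of 104 or 105 peaks by signal, the share with the motif was 37.1% in the lowest group, 49.0% in the second, 56.7% in the third and 65.7% in the highest. The middle of the nearest match lay at a median of 12.5 bp from the summit, and within 25 bp in 159 of the 218 (72.9%). At promoters the GA strand lay on the gene's strand in 41 peaks, the CT strand in 48 and both in 18. The longest run of alternating G and A at an X summit, 41 bases, lay in an intron of CHES-1-like (signal 214.9). That peak was singled out after its values were seen.

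**Figure D5:**
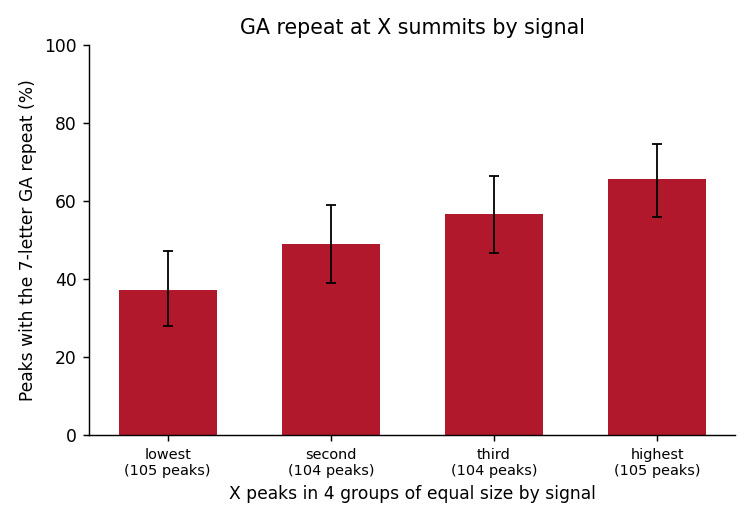
Share of X peaks with GAGAGAG within 100 bp of the summit in 4 groups of 104 or 105 peaks by signal, with exact 95% intervals. The share is 37.1% in the lowest group and 65.7% in the highest.

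The CA repeat CACACACA was found at 82 X summits (19.6%) and 13.9% of autosomal summits (odds ratio 1.51, 95% interval 1.15 to 1.99, two-sided Fisher's exact test, adjusted p = 0.0175). It too was more common on X over whole arms, 5.77% against 3.79% of windows, and its ratio of summits to windows was 3.40 on X and 3.52 to 3.89 on the other arms. The call held against 3L (odds ratio 1.66, exact test, adjusted p = 0.0166) and with list A alone (odds ratio 1.57, exact test, adjusted p = 0.0123). It was lost with list B alone (odds ratio 1.10, exact test, adjusted p = 0.708), against 2L (1.39, adjusted p = 0.199) and against 3R (1.49, adjusted p = 0.09). It was also lost at promoters (1.51, exact test, adjusted p = 0.232), outside them (1.50, adjusted p = 0.226) and in the stronger part of the list (1.66, adjusted p = 0.0943).

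A hexamer that resembles the initiator of fly core promoters, TCAGTT, went the other way. It lay within 100 bp of 44 X summits (10.5%, 95% interval 7.75 to 13.9%) and of 293 autosomal summits (16.8%, 95% interval 15.1 to 18.7%), an odds ratio of 0.581 (95% interval 0.415 to 0.814, two-sided Fisher's exact test, adjusted p = 0.00606). Over whole arms it was in 12.3% of X windows and 12.5% of autosomal windows, and in 13.5% of the candidates that did not pass on X and on the autosomes alike. At promoters the shares were 14.03% and 22.2%, and the odds ratio, 0.571, missed the threshold (exact test, adjusted p = 0.0547). The odds ratio was below 1 against each arm, 0.682 against 2L, 0.496 against 3L and 0.597 against 3R, and passed against 3L (exact test, adjusted p = 0.00118) but not against 2L (adjusted p = 0.199 by the same exact test) or 3R (adjusted p = 0.0547 by the same exact test). With list A alone it was 0.671 and with list B alone 0.660, neither of which passed (exact tests, adjusted p = 0.0642 and 0.0989).

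The dl motif was rare at X summits, as at those of the other arms. It lay near 4 of 418 X summits (0.957%, 95% interval 0.261 to 2.43%) and 30 of 1740 autosomal ones (1.72%), an odds ratio of 0.551 (95% interval 0.193 to 1.57, two-sided Fisher's exact test, adjusted p = 0.536). Over all windows it was in 1.27% on X and in 1.27% on 2L, 3L and 3R. Its ratio of summits to windows was 0.756 on X, which rests on 4 peaks, and 1.16 to 1.60 on the other arms. That difference was not tested. The 4 peaks had signals of 125.4 (pdgy), 94.96 (CG42353), 87.1 (CG3847) and 84.4 (asRNA:CR44891, named after its values were seen), and none of the 4 had GAGAGAG. At summits, none of the other motifs searched differed between X and the autosomal arms past the threshold. These were the Zelda motif CAGGTAG, the DREF motif TATCGATA, the core promoter motif GGTCACAC, the E-box CACGTG, the Stat92E motif TTCNNNGAA, the repeat TATATATA, runs of AAAAAAA, the repeat CGCGCGC, the AP-1 motif (TGACTCA with either C or G in the middle) and the GATA motif (GATAA between A or T and C or G). The odds ratio farthest from 1 among these, 0.217, was that of GGTCACAC, found at 1 X summit (0.239%) and at 1.09% of autosomal summits (exact test, adjusted p = 0.253). Away from thresholded summits some of them did differ. AAAAAAA was in 29.3% of X and 19.8% of autosomal candidates that did not pass (exact test, adjusted p = 3.64e-34). CGCGCGC, higher on X, and TTCNNNGAA, lower on X, also differed past the threshold there. In flanks AAAAAAA and CGCGCGC did so, both higher on X.

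No difference in spacing between X and the other arms passed the test, and X held the stretch with the most peaks of the 4 arms. The nearest neighbour lay within 5000 bp for 244 X peaks (58.4%) and 56.9% of autosomal peaks (odds ratio 1.06, 95% interval 0.856 to 1.32, two-sided Fisher's exact test, adjusted p = 0.775). Linked at that distance, the 418 peaks formed 262 groups, of which 174 were lone peaks, 58 pairs and 30 groups of 3 or more. The 3 largest groups lay at Mnt (11 peaks over 17018 bp), in Tlk (9 peaks over 8063 bp) and at Raf and CG2865 (8 peaks over 12574 bp). Mnt encodes a repressor that competes with Myc for their partner Max.

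The stretch from Mnt through Rala to Tlk, chrX:3671801-3789770, held 32 peaks in 118.0 kb, 7.66% of all X peaks, and overlaps 3 coding genes. Within Mnt there were 14 peaks, with signals from 81.8 to 335.7, and within Tlk 17, from 74.96 to 462.2. The remaining one, in an intron of Rala, a small GTPase gene, had 353.8. Of the 87 candidates there, 32 passed (36.8%), 18 of the 32 were among the best regions of both lists and 17 had GAGAGAG. In any span of 120000 bp the most peaks were 32 on X, 22 on 2L, 21 on 3L and 27 on 3R. The stretch was chosen after the data were seen, so it is a description with no test.

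Other genes with many peaks were Mur2B (10 peaks within 145.2 kb, which overlaps br with 7), CHES-1-like (9 within 27.0 kb), Raf (8), pdgy (5) and the Polycomb gene ph-p (5, signals of 78.8 to 128.9). The longest stretch of X without a peak ran between summits at 21375694 and 22444404 (1068.7 kb) and held 37 coding genes and 21 candidates. From the last summit, 22490977, to the end of the arm there were 1051.3 kb with 28 coding genes and 49 candidates.

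Genes of known pathways on X were examined through 15 lists, and each count is read against the 10.0% of X genes with such a peak. The window here is wider than that of the promoter class, so a counted peak may lie nearer to the start site of another gene. These counts are descriptions, and some genes are in 2 lists. Of 6 targets of Dorsal in the embryonic dorsoventral axis, 3 had such a peak. The Dpp target repressor brk had 341.7 (186.8 in list A, 182.2 in list B), the proneural gene sc 256.6 (129.8 and 140.6) and sog, the BMP antagonist, 121.4 (89.5 and 9.55). The first 2 had similar values in both lists, whereas sog was far lower in B and not among its best regions. vnd, l(1)sc and ac had none.

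Signalling genes were marked to differing degrees. Of 5 JAK-STAT genes 3 had a peak, dome (525.5) and the cytokine genes upd2 (144.1) and upd3 (116.8), whereas upd1 and hop had none. Of 6 genes of Notch, Wnt and Hedgehog signalling, sgg (425.6) and the receptor gene N (85.6) had one, and dx, arm and dsh had none. Of 7 genes of innate immunity, the kinase gene Tak1 (129.4, with separate values of 111.8 in list A and 18.7 in list B) and the recognition receptor gene PGRP-LE (88.3) had one. PGRP-LE starts near a start site of sd, and its peak lay between them. psh and Hayan, serine proteases upstream of Toll, and PGRP-SA, a recognition receptor upstream of Toll, had none.

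Among the lists of 7 or more genes, those of growth and patterning had the largest shares. Of 7 growth genes 4 had a peak, sd (780.2), Mnt (335.7), Myc (117.3) and bi (111.8), and S6kII, Smox and fw had none. Of 10 transcription factors of patterning 7 had one, led by sd, ovo (148.0), btd (129.5) and lz (122.3), and oc, Sp1 and run had none. Of 5 genes of the ecdysone response and synthesis, the nuclear receptor gene Hr4 (205.6) and br (90.6), an early gene of the ecdysone response, had one, and usp, phtm and Cyp18a1 had none. Inside br the strongest of the 7 peaks had 203.8.

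Of 7 genes of dosage compensation and sex determination only Sxl, the switch gene of sex determination, had a peak within 1000 bp of a start site (113.3, with 60.8 in list A and 48.3 in list B). The noncoding RNA gene roX1 had 1 candidate within the window, with a signal of 45.1, that did not pass, and neither roX2 nor mof had a candidate there. Of 10 neuronal genes elav (278.1) and dnc (267.2) had one, fne, cac and para had none, and para had a peak in an intron (130.9), nearest to the start site of Cnx14D. Of 8 genes of actin, adhesion and muscle the integrin gene mys (340.2) and Act5C (167.6) had one, and if, sqh and flw had none. The peak of mys lay 523 bp from its start site and 148 bp from that of fs(1)h, and the peak of Act5C lay 866 bp from its start site and 6 bp from that of lncRNA:CR45668. Of 3 clock genes sgg and norpA (94.95) had one and per had none, and of 2 chaperone genes Hsc70-3 (198.4) had one and Hsp60A had none.

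The genes of terminal secretory products had none. No peak or candidate lay within 1000 bp of a start site of the 5 salivary gland secretion genes (Sgs4, ng1 and ng2 among them) or of the 6 genes of yolk and eggshell (Yp1, Yp2 and Yp3 among them). Of 13 genes of cytoplasmic ribosomal proteins, RpS6 had a peak (76.7), close to the threshold and 49 bp from the start site of snoRNA:Or-aca2, and RpL17, RpL22 and RpL35 had none.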

How the data were processed

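Region lists of ChIP-seq from whole larvae were used as deposited. Per the deposited description files and labels, regions were called on each of 2 alignments against a control (lists A and B), on the pooled alignments, and thresholded by the irreproducible discovery rate (IDR). The aligner and caller are named in none of these sources, and neither is the IDR threshold. The signal column is the authors' value for each region called against the control, not normalised between lists, and regions were ranked by it. It is read here as a score, not as a fold enrichment. At sd the pooled value, 780.2, exceeded those of list A (462.8) and list B (359.7). The −log10 q-value that the authors deposited was not used to rank, because 264 X peaks share its largest value, 3.54.

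Coordinates are 1-based, in dm6. Genes came from Ensembl release 115 (BDGP 6.54), without pseudogenes and transposable elements, and sequence from the RefSeq Release 6 assembly. X was compared with 2L, 3L and 3R by Fisher's exact test (two-sided, Woolf 95% intervals on odds ratios), with Benjamini-Hochberg adjustment over 5 general comparisons, 7 location classes or 15 motifs and a threshold of 0.05. Shares have exact Clopper-Pearson 95% intervals, which cover counting of regions only. Tests and intervals treat regions as independent, which neighbouring summits are not. Of the 418 X summits, 244 lay within 5000 bp of another. Regions and genes are the units, not animals, so p-values do not describe variation between larvae. Python 3.11.15, SciPy 1.17.1, NumPy 2.4.6 and Matplotlib 3.10.9 were used, and the functions were tested on simulated data.

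Named genes were those nearest to the 20 strongest X peaks, up to 4 list members with a peak within 1000 bp of a start site by signal and up to 3 without one in list order, those at the threshold and those at the 3 largest groups. The members, gene lists and motifs were chosen with earlier results of these data known. Alternatives were other arms, windows, stricter signal, dm3 and each single list.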

Additional observations from a re-analysis of the deposited data

How the results depend on the processing

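The 8 comparisons of X with the autosomal arms were recomputed under 69 alternatives in all. The signal share had an odds ratio of 1 and so no direction to keep, and its 9 alternatives lay from 0.959 to 1.09 without passing. Of the 60 alternatives of the other 7 comparisons, 45 kept the direction and the side of the threshold. All values here are odds ratios of X over the autosomal arms, and the causes of the changes were not tested. The pass share fell short of the threshold against 3R alone (1.1), at the stricter signal, the median of the whole list or above (1.16) and without the Mnt to Tlk stretch (1.1, chosen after seeing the data). The GAGAGAG share fell short against 3R alone (1.32), at the stricter signal (1.34) and with promoter peaks only (1.23), and ranged from 1.44 to 1.58 with list A or B alone. The share of genes with a peak near a start site passed only with the window of 5000 bp (0.789). The promoter class turned direction against 2L alone (1.09) without passing. The close neighbour share, which passed nowhere, turned direction against 2L (0.957), against 3L (0.997), at the stricter signal (0.924), at 20000 bp (0.909), without the Mnt to Tlk stretch (0.923) and with either list alone (0.975 to 0.989). The both-list and dl motif shares passed under none of the alternatives run. No paired analysis was possible because there was 1 group. Unknown read depth limits all counts of peaks, and neither list A nor list B could be linked to a replicate number.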
